A study of Mus musculus with 3 samples.

Results

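The cysteine tRNA genes with anticodon GCA are the largest tRNA gene family of these tables: 60 of the 446 rows of the tRNA gene table (13.5%) carry a name that starts with tRNA-Cys-GCA. They were taken by name alone, from that table and from the table of each library. Small RNA of whole epididymis was sequenced from mice labelled wild type (1 library, whose label B6WT is all that the labels give of a strain) and from mice labelled Alkbh3-/- (2 libraries, here knockout 1 and knockout 2). The labels give no age, sex, allele design or pooling and do not say whether the knockout libraries are separate animals. The spread behind the p-values comes from the knockout pair alone, largely pooled over features, and may be technical. RNA between 15 and 50 nt was cut from a gel, and the tables hold no mRNA per gene, so the tissue could not be checked against marker genes.

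Cysteine tRNA reads the codons UGU and UGC and brings cysteine, the amino acid of disulfide bonds, to the ribosome. When a tRNA is cut in the anticodon loop it leaves a 5′ and a 3′ fragment, and the 5′ fragments of cysteine and alanine tRNAs, which start with a run of guanines, are known to inhibit translation. Fragments of tRNA are abundant in the epididymis and reach maturing sperm. The enzyme ALKBH3 is a demethylase whose known tRNA substrates are 1-methyladenosine and 3-methylcytidine. In these gene names the first number after the anticodon marks a sequence type (copies with the same mature sequence, by the naming convention) and the second number the copy; the sequences themselves were not compared here.

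Most copies lay in 1 block of the genome. On the mm10 build, 52 of the 60 were on chromosome 6, and 51 of these stood within 231 kb, from tRNA-Cys-GCA-4-1 (chromosome 6, 48133937 to 48134008, plus strand) to tRNA-Cys-GCA-28-1 (48364442 to 48364516, minus strand). The remaining chromosome 6 copy, tRNA-Cys-GCA-3-1 (47978997 to 47979068, plus strand), stood apart from them. Chromosome 11 held 5 copies, chromosome 9 held 2 and chromosome 17 held 1. Both strands were used on chromosome 6, with 22 copies on the plus strand and 30 on the minus strand. A RefSeq tRNA gene had the same start and end for 56 copies, overlapped 57 and was absent for 3. Of the copies, 7 lay in an intron of the lincRNA gene Gm16630 (4 on its strand and 3 on the other), 53 lay in no GENCODE gene, and 0 touched an exon. The tables list 56 copies at 72 nt, and the lengths of all copies ran from 57 to 75 nt.

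Many copies gave few reads. For Cys-GCA the gene table held 2199 wild-type reads, 2474 of knockout 1 and 2975 of knockout 2. With 15107055, 15411457 and 21169908 reads in the 5 RNA classes of these libraries, this is 146, 161 and 141 RPM (reads per 1000000 reads of the 5-class total), so the wild type lay between the knockout libraries. As a share of the tRNA gene table Cys-GCA made up 0.0548% (95% Wilson interval 0.0525 to 0.0571%) of the wild-type library, 0.0741% (0.0712 to 0.0770%) of knockout 1 and 0.0624% (0.0602 to 0.0647%) of knockout 2. By this share both knockout libraries lay above the wild type, so the order of the libraries depends on the total used. The intervals of these shares hold counting error alone, because the reads carry no molecular identifiers and can be copies of 1 molecule. By total reads Cys-GCA ranked 17 of 50 anticodons with reads in the wild type, and by reads per row it ranked 41. The other anticodons with at least 15 rows in the wild type stood at 12641 RPM per row for Gly-GCC, 268 for Lys-CTT, 61.5 for Asp-GTC and 0.751 for Ala-AGC, against 2.43 for Cys-GCA and a median of 8.43 over anticodons with reads.

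Reads were spread unevenly over the copies, and the levels differed by sequence type. The split into types 1 to 3, type 4, type 5 and the rest was made after the values were seen and has no test. Types 1, 2 and 3, which together have 7 copies on chromosomes 6, 9, 11 and 17, gave 93 to 151 reads per copy in wild type, 91 to 170 in knockout 1 and 161 to 243 in knockout 2. Type 4, with 28 copies on chromosome 6 and 1 on chromosome 9, gave 26 to 43, 23 to 49 and 29 to 46 reads per copy in the same order. These ranges do not overlap in any library, and the mean of a type 1 to 3 copy was 3.55, 3.26 and 5.35 times that of a type 4 copy. Types 6 to 28 have 23 copies of 1 row each, all on chromosome 6: 8 had a mean level within the type 4 range of 1.58 to 2.64 RPM, tRNA-Cys-GCA-7-1 lay just above it at 2.68, and tRNA-Cys-GCA-8-1, tRNA-Cys-GCA-16-1 and tRNA-Cys-GCA-17-1 lay below it at 0.831, 0.643 and 0.541. The last 11 copies had at most 3 reads in every library of the gene table, where 1 of them, tRNA-Cys-GCA-27-1, had 0 throughout. The per-library tables, which hold more reads, give tRNA-Cys-GCA-27-1 0, 1 and 1 reads and the wild type of tRNA-Cys-GCA-28-1 4 first-class reads and 1 of the second class, the classes being described further on.

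**Figure D1:**
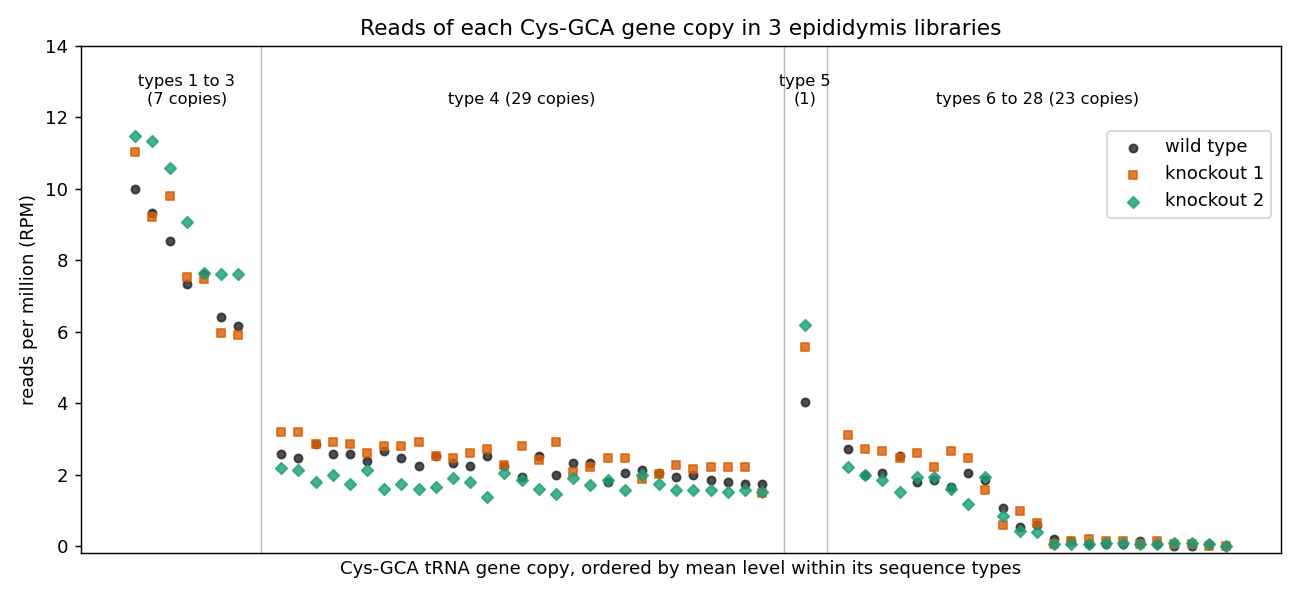
Level of each of the 60 Cys-GCA gene copies in the tRNA gene table, in RPM, with 1 point per library; copies are ordered by mean level within their sequence types. The 7 copies of types 1 to 3 lie above all 29 copies of type 4 in every library, and 11 copies of types 6 to 28 lie near 0.

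In types 1 and 4, copies on different chromosomes had like levels. tRNA-Cys-GCA-1-1 on chromosome 9 (104404056 to 104404127, plus strand) gave 93, 91 and 161 reads in the wild type, knockout 1 and knockout 2. tRNA-Cys-GCA-1-2 on chromosome 17 (71599271 to 71599342, plus strand) gave 97, 92 and 161. The type 4 copy tRNA-Cys-GCA-4-29 starts 3936 nt from tRNA-Cys-GCA-1-1 (chromosome 9, 104400120 to 104400191, plus strand), yet it gave 32, 29 and 42 reads, within the range of the type 4 copies of chromosome 6. Over the 29 type 4 copies the variance of the counts was 0.666, 0.977 and 0.566 times their mean in the 3 libraries, where independent counts with 1 shared mean would give about 1. The 4 copies of type 3 were less even, at 2.95, 4.99 and 7.35 times. The sources used here do not say how reads that match several copies were assigned. Where copies of 1 type had like levels, equal output and an even split of their reads therefore cannot be told apart. Whether copies of different types also shared reads is not known, since the sequences were not compared. The levels and ranks of single copies and types, and the effective number of copies below, carry this limit.

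The 5 copies with the highest mean level were of types 2 and 3. tRNA-Cys-GCA-3-4 (chromosome 11, 97988923 to 97988994, minus strand) led with 151, 170 and 243 reads, or 10.0, 11 and 11.5 RPM. tRNA-Cys-GCA-3-3, which starts 677 nt from it on the same strand (97988246 to 97988317), had 9.33, 9.21 and 11.3 RPM. tRNA-Cys-GCA-2-1 (chromosome 11, 97798906 to 97798977, minus strand) had 8.54, 9.80 and 10.6 RPM. In this last gene both knockout libraries were above the wild type, while in tRNA-Cys-GCA-3-3 knockout 1 was below it. tRNA-Cys-GCA-3-1 on chromosome 6 had 7.35, 7.53 and 9.07 RPM, and tRNA-Cys-GCA-3-2 (chromosome 11, 97797072 to 97797143, plus strand) had 7.61, 7.46 and 7.65. The log2 fold changes of these 5 genes, knockout against wild type, ran from -0.010 for tRNA-Cys-GCA-3-2 (SE 0.43) to 0.26 for tRNA-Cys-GCA-2-1 (SE 0.45), and none passed the quasi-likelihood test of edgeR (adjusted p from 0.907 to 0.993). With another scaling of the libraries or the per-library counts the sign of tRNA-Cys-GCA-3-2 turned positive. Together the 5 highest copies of each library held 29.4% of wild-type Cys-GCA reads and 31.9% ± 5.38 (SD, n = 2) of knockout ones. The effective number of copies (the inverse of the summed squared shares, which would be 60 if all copies gave the same number of reads) was 32.3 for wild type, 33.9 for knockout 1 and 25.1 for knockout 2.

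The summed reads of the family did not pass the test between genotypes. Cys-GCA stood at 146 RPM in wild type and 151 ± 14.1 (SD, n = 2) over the knockout pair, a log2 fold change of 0.048 with SE 0.47. Its adjusted p was 0.919 in the quasi-likelihood test of edgeR, which called 11.1% of the 45 anticodons tested (2.22% higher and 8.89% lower). The median log2 fold change of all 45 anticodons was -0.29 and moved by 0.25 to 0.32 under the other scalings, in step with Cys-GCA. Relative to that median Cys-GCA stood at 0.34, and at 0.33 to 0.36 over the 5 scalings. Among the tRNAs whose 5′ end is a run of guanines, the alanine tRNAs Ala-AGC, Ala-CGC and Ala-TGC had log2 fold changes of 0.18, 0.36 and 0.16. Of these 4 tRNAs, Cys-GCA included, 0 passed in either direction, and their median was 0.17. Of the 5 anticodons with at least 15 rows, 1 passed, Gly-GCC, which was lower in the knockout libraries (log2 -0.54, SE 0.077, edgeR adjusted p = 4.95e-07). The median of all 5, Gly-GCC included, was -0.091.

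Single copies gave no call. Of the 60 copies, 49 passed the filter on low counts, and in the quasi-likelihood test of edgeR 0 were higher and 0 lower, against 11.8% called of all 348 tRNA genes tested (3.16% higher and 8.62% lower). Without adjustment 0 had an edgeR p under 0.05, and DESeq2 gave 0 calls and 0 such p-values. The log2 fold changes ran from -0.53 for tRNA-Cys-GCA-8-1 to 0.54 for tRNA-Cys-GCA-5-1, with a median of -0.024 against -0.17 over all genes, and with SEs of 0.43 to 0.82. A change of the size of these SEs would not be called here: tRNA-Cys-GCA-5-1, at 0.54 with SE 0.43, had an edgeR adjusted p of 0.643. The absence of calls therefore does not show equal levels. Nor are the 49 rows tested 49 separate measurements. They include the 29 type 4 copies, which share 1 mature sequence by the naming convention, and how shared reads were assigned is not known. The count of 0 is thus not comparable row by row with the share over all genes.

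The levels were not in the same order in all sequence types. Type 4 copies together had 64.7 RPM in wild type, 72.4 in knockout 1 and 50.5 in knockout 2, so the knockout libraries lay on either side of the wild type. Types 1 to 3 together had 55.4, 56.9 and 65.3 RPM, with both knockout libraries above the wild type, knockout 1 by little. Type 4 thus held 44.4% and 45.1% of Cys-GCA reads in the wild type and knockout 1 and 36% in knockout 2, where types 1 to 3 held 46.5%. Types 6 to 28 had 21.4, 25.6 and 18.5 RPM and went with type 4. The knockout mean was 61.5 ± 15.5 RPM (SD, n = 2) for type 4 and 61.1 ± 5.96 for types 1 to 3. Fewer cells of a type and less RNA per cell cannot be told apart in such whole-tissue samples. Knockout 2 also held the largest share of miRNA reads (30.7%, against 24.8% in knockout 1 and 15.1% in the wild type), and the part of library composition in these levels was not tested.

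**Figure D2:**
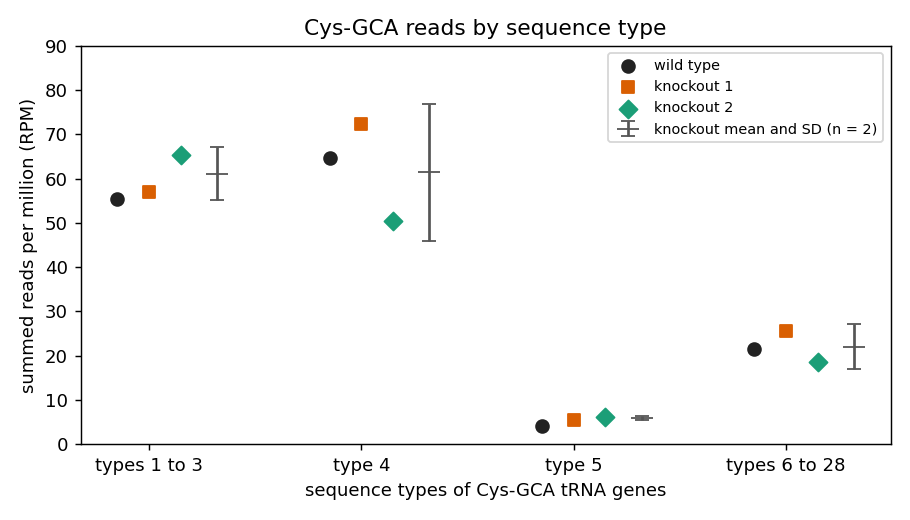
Summed level of the Cys-GCA copies by sequence type, in RPM, with 1 point per library and the knockout mean with its SD (n = 2). In type 4 the wild type (64.7) lies between knockout 1 (72.4) and knockout 2 (50.5), while in types 1 to 3 knockout 2 is highest at 65.3.

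The per-library tables split each gene's reads into a first and a second read class, which the sources used here do not describe, and list read lengths. They hold 3410, 3872 and 4681 Cys-GCA reads of wild type, knockout 1 and knockout 2, of which the gene table holds 64.5%, 63.9% and 63.6%. First-class reads made up 96.7% (95% Wilson interval 96.0 to 97.2%), 96.1% (95.5 to 96.7%) and 94.3% (93.6 to 95%). Second-class reads were thus 3.31%, 3.87% and 5.66% of Cys-GCA reads, against 0.377%, 0.414% and 0.418% over all tRNA genes. Leaving out Gly-GCC, which supplied most tRNA reads, the share over all other tRNA genes was 1.37%, 1.03% and 1.04%. Cys-GCA second-class reads were not shared evenly: 38 of the 60 copies had 0 second-class reads in all libraries, and 6 copies had 5 or more in some library. Type 4 copies gave 2, 3 and 3 second-class reads in all.

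The copy with the most second-class reads was tRNA-Cys-GCA-5-1 (chromosome 11, 97769826 to 97769900, minus strand), which overlaps no GENCODE gene. It is listed at 75 nt, while the RefSeq gene n-TCgca18 that it overlaps has 72 nt. Its second-class reads numbered 53 in wild type, 125 in knockout 1 and 222 in knockout 2, or 3.51, 8.11 and 10.5 RPM. Both knockout libraries were above the wild type, by 2.31 and 2.99 times. Its first-class reads numbered 47, 54 and 47, or 3.11, 3.5 and 2.22 RPM, with knockout libraries on either side of the wild type. The second class therefore made up 53% (95% Wilson interval 43.3 to 62.5%) of its wild-type reads, 69.8% (62.7 to 76.1%) in knockout 1 and 82.5% (77.5 to 86.6%) in knockout 2. In a test of all genes by read class, added after these values were seen, the second-class reads of this gene had a log2 fold change of 1.41 (SE 0.50) and did not pass (edgeR adjusted p = 0.197). Of all 522 features tested 4.79% were called (2.68% higher and 2.11% lower), and of the 53 Cys-GCA ones 0, with 1 at an unadjusted edgeR p under 0.05. DESeq2 gave the same counts, 0 and 1. The second-class reads of tRNA-Cys-GCA-5-1 passed with TMM factors (adjusted p = 0.0196) and with column sums (adjusted p = 0.0411), over a range of adjusted p from 0.0196 to 0.508. In the gene table, which does not separate the classes, the same gene had 4.04, 5.58 and 6.19 RPM (log2 0.54, SE 0.43, edgeR adjusted p = 0.643).

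A single length made up most of these reads. Second-class reads of 57 nt numbered 30, 101 and 185 in tRNA-Cys-GCA-5-1 and 0 in all other Cys-GCA copies. They stood at 1.99 RPM in wild type, 6.55 in knockout 1 and 8.74 in knockout 2, 3.30 and 4.40 times the wild type. This gene alone held 62.5%, 90.2% and 92.5% of the 48, 112 and 200 second-class reads of 57 nt over all tRNA genes. The length lies above the 50 nt limit of the gel piece and is 18 nt short of the listed gene. Of all Cys-GCA fragments tested this one had the largest log2 fold change, 1.94 (SE 0.73), and it did not pass (edgeR adjusted p = 0.150, 0.0426 with column sums, and 0.0426 to 0.437 over the alternatives).

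**Figure D3:**
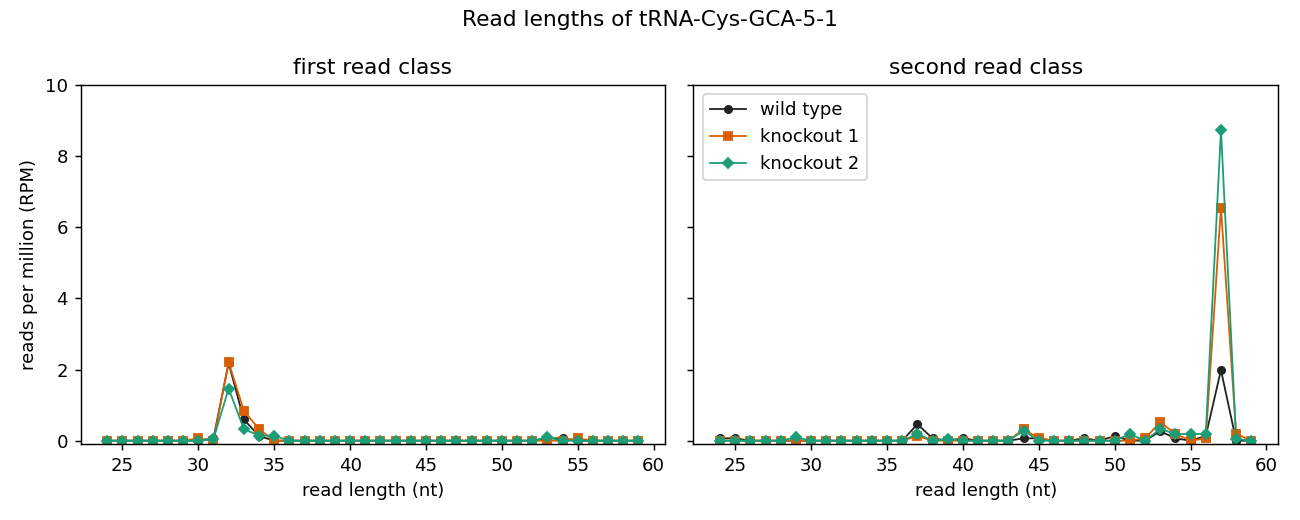
RPM of tRNA-Cys-GCA-5-1 by read length, for the first read class (left) and the second (right), with 1 line per library. The second class peaks at 57 nt, at 1.99 for wild type, 6.55 for knockout 1 and 8.74 for knockout 2, and the first class peaks at 32 nt in all libraries.

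Without tRNA-Cys-GCA-5-1 the second-class level was lower in both knockout libraries than in the wild type, with no test. The other copies together had 60 second-class reads in wild type, 25 in knockout 1 and 43 in knockout 2, or 3.97, 1.62 and 2.03 RPM. This was 1.81%, 0.677% and 0.975% of their reads, above the share of all tRNA genes without Gly-GCC in the wild type and below it in both knockout libraries. Type 3 copies supplied 39, 12 and 28 of them. By length, Cys-GCA second-class reads of 37 nt numbered 44, 15 and 22, or 2.91, 0.973 and 1.04 RPM, of which type 3 gave 27, 7 and 13. Their log2 fold change was -1.52 (SE 0.72), and they did not pass (edgeR adjusted p = 0.336). Over all tRNA genes, second-class reads of 37 nt numbered 1788, 1205 and 1758, fewer in both knockout libraries although their read totals were larger. Cys-GCA supplied 2.46%, 1.24% and 1.25% of these.

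Reads of 32, 33 and 34 nt, about the size left by a cut in the anticodon loop, dominated the family. They made up 85.3% of wild-type Cys-GCA reads and 84.7% ± 3.21 (SD, n = 2) of knockout ones, while reads of 30 to 36 nt made up 89.5% and 88.0% ± 1.58. In all tRNA genes the 32 to 34 nt share was 14.6% in wild type and 20.7% ± 1.56 over the knockout pair, and without Gly-GCC it was 28.4% and 35.8% ± 4.41. First-class reads of 32 nt numbered 2079, 1918 and 2421, or 138, 124 and 114 RPM, both knockout libraries being lower. First-class reads of 33 nt numbered 532, 1001 and 1027, or 35.2, 65.0 and 48.5 RPM, both knockout libraries being higher. There were 0.257 reads of 33 nt per read of 32 nt in wild type, 0.522 in knockout 1 and 0.425 in knockout 2. Libraries stood in this order also in types 1 to 3 (0.377, 0.772 and 0.638), in type 4 (0.192, 0.395 and 0.280), over all tRNA genes (0.453, 1.15 and 0.919) and over those without Gly-GCC (0.953, 2.22 and 1.58). Reads of 34 nt stood at 19.5, 28.9 and 19.2 RPM and those of 30 nt at 7.61, 3.89 and 6.28, both in the first class. Neither 32 nt (log2 -0.20, SE 0.50) nor 33 nt reads (log2 0.69, SE 0.59) passed (edgeR adjusted p = 0.897 and 0.661). Of 14 Cys-GCA fragments tested 0 passed edgeR's test, against 2.16% of 834 over all anticodons (1.2% higher and 0.959% lower). An unadjusted p under 0.05 was found for 3 of them. These 3 were the 57 and 37 nt reads of the second class and the 25 nt reads of the first. DESeq2 gave 0 calls and 1 unadjusted p under 0.05.

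Reads of 24 and 25 nt came mostly from types 1 to 3 and little from type 4. Both classes together, they made up 3.29% (95% Wilson interval 2.43 to 4.43%) of type 1 to 3 reads in wild type, 6.49% (5.28 to 7.94%) in knockout 1 and 5.60% (4.70 to 6.67%) in knockout 2. In type 4 they made up 0.194% (0.0661 to 0.570%), 0.172% (0.0586 to 0.505%) and 0.475% (0.241 to 0.935%). The intervals of these groups of copies do not overlap in any library, but they hold counting error alone. The groups were formed after the values were seen and this length range was not planned, so the contrast has no test. Reads of 15 to 23 nt did not follow this, with 1, 0 and 6 reads in types 1 to 3 and 5, 9 and 7 in type 4. As levels, first-class reads of 24 nt stood at 2.45, 3.96 and 4.11 RPM and those of 25 nt at 0.530, 1.82 and 1.84, both knockout libraries being higher in each. Neither passed the edgeR test (log2 0.72, SE 0.67, adjusted p = 0.692 for 24 nt, and log2 1.77, SE 0.88, adjusted p = 0.367 for 25 nt). The 25 nt value rests on 8 reads in the wild type. Over all tRNA genes, first-class reads of 24 nt numbered 2854, 3128 and 6401, and those of 25 nt 6794, 5709 and 7595. Relative to the library totals, both knockout libraries were thus higher at 24 nt and lower at 25 nt.

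**Figure D4:**
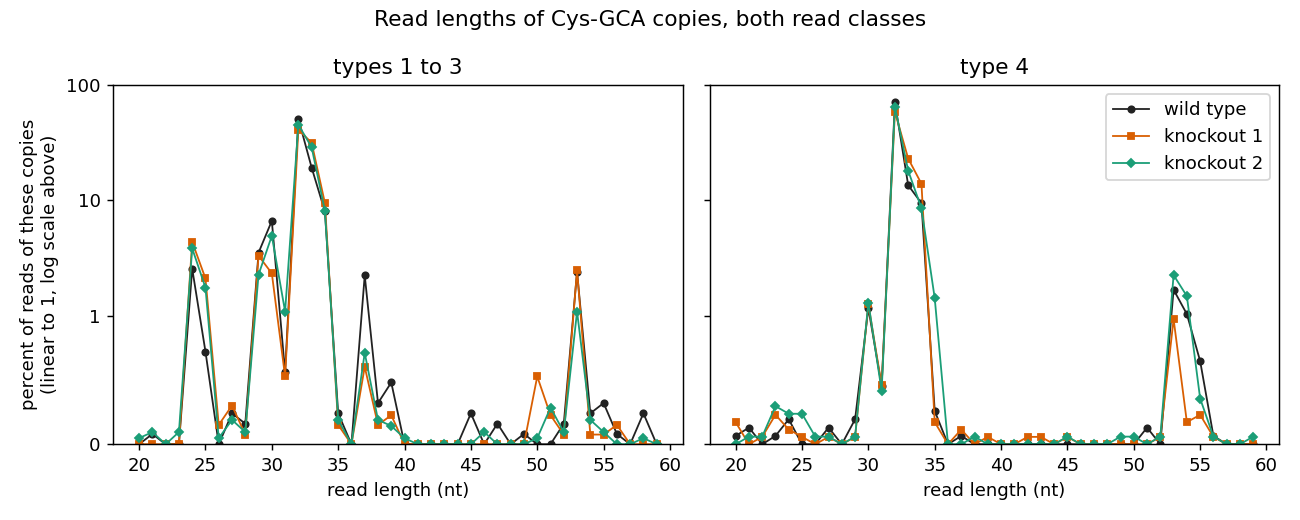
Read lengths of the copies of types 1 to 3 (left) and type 4 (right), as a percent of the reads of those copies in each library, both read classes together; the vertical scale is linear to 1 and logarithmic above. Both peak at 32 nt. In knockout 1, reads of 24 nt stand at 4.37% in types 1 to 3 against 0.115% in type 4, and those of 25 nt at 2.11% against 0.0574%.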

How the data were processed

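The authors deposited raw read counts: reads per RNA class, reads per tRNA gene, and 1 table per library with gene positions, counts of 2 read classes and read-length lists (unit: other, being lists rather than numbers). The submitters' processing notes name mm10 and cutadapt. Aligner, counter and multi-mapping rule: not given in the sources used here. In 0 of 1213 rows did a deposited length list differ from its class counts. The gene table held 4014098, 3340218 and 4766609 reads in the wild type, knockout 1 and knockout 2.

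Knockout and wild type were compared with the two-sided quasi-likelihood test of edgeR 4.0.16 in R 4.3.3, on library sizes set to the 5-class total, with filterByExpr and Benjamini-Hochberg adjustment at 0.05 over each whole table (anticodon sums, genes, and anticodon by read class and length). The knockout pair leaves 1 residual degree of freedom, the lone wild type is assumed to vary like it, and except in the test by gene and read class the prior degrees of freedom were infinite, so p-values rest on the trend over features. The SE is the fold change divided by the root of F. Alternatives, DESeq2 1.42.0 included, are given below. The steps for anticodon sums, genes and fragments were run on simulated data. The simulated dispersion was below that of the fragments (0.124), and the test by gene and read class was not simulated.

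Coordinates were taken as 1-based and set beside RefSeq (GRCm38.p6) and GENCODE M21. Named were the 5 copies highest in mean RPM, the leading copy of each read class, the fragments with most reads and any past the threshold. Genes at the ends of a range, the sequence type groups and the values without Gly-GCC or tRNA-Cys-GCA-5-1 were picked after their values were seen. Members and lists were chosen with earlier results of these data known.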

Additional observations from a re-analysis of the deposited data

How the results depend on the processing

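The Cys-GCA sum stayed above 0 and did not pass under 7 alternatives (TMM factors, column sums, no miRNA reads, DESeq2, no filter, no dispersion trend, per-library counts), with log2 fold changes from 0.048 to 0.39 and adjusted p from 0.486 to 0.934; with 1 knockout library left out it was -0.051 or 0.14, with no test. Single copies called stayed at 0 under the same 7. Fragments called went from 0 to 1 with column sums, the 57 nt second-class reads. tRNA-Cys-GCA-3-2 turned positive with TMM factors (0.26), column sums (0.26), no miRNA reads (0.23), DESeq2 (0.19) and per-library counts (0.037). With TMM factors, column sums, no miRNA reads and DESeq2 the median log2 fold change of all tRNA genes moved up by 0.27, 0.27, 0.24 and 0.20. The cause was not tested. The share of first-class reads differed by -1.45 points (knockout mean less wild type), by 0.987 without tRNA-Cys-GCA-5-1 (an alternative added after seeing the data), and by -2.35 to -0.56 with 1 knockout library left out. The effective number of copies differed by -2.88, by -7.26 without knockout 1 and by 1.51 without knockout 2. The 30 to 36 nt share differed by -1.52 points, and by -2.64 to -0.40 with 1 knockout library left out. Merging copies of identical sequence was not run, since the sequences were not used here, and copies were merged by the type in their name instead, which gave 3.75 effective types for wild type and 4.07 ± 0.408 (SD, n = 2) for knockout. With 1 knockout library left out no test of copies or fragments has residual degrees of freedom. No paired analysis was possible because the wild type has 1 library and shares no numbering with the knockout libraries. Depth limits the scarce copies most: 11 of 60 had at most 3 reads in every library of the gene table and were not tested.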

Other observations

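Scarce copies stood beside read-bearing ones. All 11 copies with at most 3 reads in every library of the gene table were on chromosome 6. For 8 of them the nearest Cys-GCA gene was a copy with more reads on the same strand, with starts 910 to 1006 nt apart. In 6 of these 8 that neighbour was of type 4. Type 4 made up 28 of the 52 copies on chromosome 6 and held no scarce copy. Most read-bearing copies there were thus of type 4, and the 6 of 8 shows no preference for it. tRNA-Cys-GCA-22-1, with 1, 0 and 1 reads in the wild type, knockout 1 and knockout 2, starts 979 nt from tRNA-Cys-GCA-4-16, with 30, 45 and 31. Of the other 49 copies, 18 had their nearest Cys-GCA gene within 1100 nt on the same strand, and in 8 of the 18 it was a scarce copy. These 8 are the same pairs counted from the other side, so this count adds nothing to the first. The distance was chosen after the positions were seen, and the spacing was not tested.

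Cys-GCA also gave reads above the gel limit of 50 nt. They made up 4.93% (95% Wilson interval 4.25 to 5.71%) of Cys-GCA reads in the wild type, 5.58% (4.90 to 6.35%) in knockout 1 and 7.56% (6.84 to 8.36%) in knockout 2, against 0.149%, 0.217% and 0.240% over all tRNA genes and 0.402%, 0.245% and 0.291% over those without Gly-GCC, where both knockout libraries were below the wild type. tRNA-Cys-GCA-5-1 alone gave 39, 118 and 211 of these reads. In the other copies they made up 3.90% (3.29 to 4.61%), 2.65% (2.18 to 3.22%) and 3.24% (2.76 to 3.81%), so that there too both knockout libraries were lower, knockout 2 within overlapping intervals. Besides the 57 nt reads of tRNA-Cys-GCA-5-1, first-class reads of 53 nt numbered 76, 72 and 79, which was 5.54%, 5.19% and 2.75% of all first-class tRNA reads of that length. As levels they stood at 5.03, 4.67 and 3.73 RPM, and did not pass edgeR's quasi-likelihood test (log2 -0.26, SE 0.63, adjusted p = 0.897).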
